A study of Homo sapiens with 18 samples.

Results

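The genes examined here are 31 genes of sterol and fatty acid synthesis and of their control by the SREBP pathway. The set was listed by name. It comprises 7 enzymes of the mevalonate pathway, 11 enzymes from squalene to cholesterol, 5 regulators of SREBP, 5 genes of sterol transport and uptake and 3 enzymes of fatty acid synthesis. All 31 genes are present in each of 3 expression tables, which list 25673 genes in the PBRM1 experiment, 25540 in the IRF1 experiment and 25557 in the MUC1 experiment.

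Transcripts were measured by RNA-seq in 6 groups of 3 libraries, 18 in all, from a pair of triple-negative breast cancer cell lines. All cells were grown with 10% serum, and the medium of BT-549 cells also held 10 µg/ml insulin. BT-549 cells stably expressed an shRNA against PBRM1, a subunit of the PBAF chromatin remodeler, or against IRF1, a transcription factor of the interferon response, and control shRNA cells were sequenced separately for each of them. The MDA-MB-436 line carried a tetracycline-inducible shRNA against MUC1, which encodes a transmembrane mucin, and were treated with vehicle (0.1% DMSO) or with doxycycline (DOX) at 500 ng/ml. The libraries are triplicate cultures of 1 line each, so the p-values rest on the spread among those cultures. For BT-549 that spread was taken from genes of similar level and not from the gene itself. Control shRNA cells treated with DOX were not analysed here, so that effects of DOX and of MUC1 silencing cannot be told apart.

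Cells make cholesterol from acetyl-CoA through mevalonate and squalene. When sterols are scarce in the endoplasmic reticulum, the escort protein SCAP carries the SREBP precursors to the Golgi, where they are cut to release transcription factors that activate the genes of this pathway. When sterols are plentiful, INSIG proteins hold SCAP back, and oxysterols activate the LXR receptors, which raise genes of sterol efflux such as ABCA1. In tumor cells the same pathway supplies cholesterol, isoprenoids and unsaturated fatty acids for membranes.

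Values are TPM (a level corrected for transcript length and scaled to a fixed total per library). Fold changes are differences of log2(TPM + 1), silenced minus control, with the standard error (SE) from limma, and a gene was called higher or lower when its p, adjusted over all genes tested in that experiment by the Benjamini-Hochberg method, was under 0.05. Of the TPM of a library, short noncoding RNAs made up between 75.7% and 79.2% (PBRM1 experiment), between 84.8% and 88.5% (IRF1 experiment) and between 12.1% and 15.2% (MDA-MB-436). Of the authors' mean normalized counts they made up 9.93% (PBRM1 experiment), 4.36% (IRF1 experiment) and 0.296% (MDA-MB-436). All other genes share the remainder of the TPM, so levels were tested only within an experiment. The silenced gene fell in each experiment, PBRM1 by 1.70 ± 0.09, IRF1 by 1.40 ± 0.13 and MUC1 by 0.72 ± 0.13 on the log2 scale (± SE, adjusted p = 1.69e-81, 7.25e-27 and 0.00148). ESR1 and PGR, whose products are absent in triple-negative tumors, stayed below 1 TPM in every library, and the listed adipocyte and hepatocyte markers did not pass the filter on low values. ERBB2, the other receptor gene listed, passed the filter, with control means of 5.94 (PBRM1 experiment), 2.51 (IRF1 experiment) and 19.0 TPM (MDA-MB-436). It was at -0.10 ± 0.09 after PBRM1 silencing and did not pass the test. It was lower after IRF1 silencing at -0.37 ± 0.12 (adjusted p = 0.0112) and with DOX at -0.21 ± 0.06 (adjusted p = 0.0175). The mesenchymal markers moved with the groups, FN1 at -1.35 ± 0.09 and VIM at 0.25 ± 0.08 after PBRM1 silencing, VIM at -0.59 ± 0.14 after IRF1 silencing, where FN1 did not pass at -0.38 ± 0.15, and VIM at -0.82 ± 0.04 and FN1 at 0.41 ± 0.03 with DOX. Their part in the results was not tested.

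Promoters of the members were searched for the sterol regulatory element to which SREBP binds, in the form TCACNCCAC, and for the CCAAT box, to which NF-Y binds as a partner of SREBP. Both strands were read over the 250 bases before each RefSeq start (GRCh38.p14), and 27 of the 31 members had an entry, the others being ACAT2, FASN, FDFT1 and SQLE. TCACNCCAC was found in 1 member, SREBF2, and in 0.883% of all 35116 promoter windows. Only this exact form was searched, within 250 bases. Whether the other members hold the element in another form or place was therefore not tested. CCAAT was found in 20 of the 27 members, in 23 of their 36 windows (63.9%), and in 32.0% of all windows. A strict form of the interferon-stimulated response element was found in 3.02% of all windows and in 0 of the members' windows. A direct repeat with 4 spacer bases was found in 0.0484% of all windows and in 0 of the members' windows. The repeated cores were written without their first base, so the spacing searched was shorter than that of the LXR element. Whether members' promoters hold LXR elements was therefore not tested.

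The promoter stretches of 6 members are shown, each from 250 bases upstream of the start to the first base that GENCODE 29 places in an exon of the gene. Capitals mark TCACNCCAC in SREBF2 and CCAAT, which reads ATTGG where it lies on the opposite strand. SREBF2 encodes an SREBP itself, INSIG1 the protein that holds SCAP back, MSMO1 and TM7SF2 sterol enzymes, STARD4 a cytosolic sterol carrier and NPC2 the lysosomal cholesterol-binding protein. They are located at chr22:41832855-41833078 (SREBF2, plus strand), chr7:155297628-155297775 (INSIG1, plus strand), chr4:165327419-165327622 (MSMO1, plus strand), chr11:65111622-65111844 (TM7SF2, plus strand), chr5:111512591-111512785 (STARD4, minus strand) and chr14:74493609-74493762 (NPC2, minus strand).
SREBF2: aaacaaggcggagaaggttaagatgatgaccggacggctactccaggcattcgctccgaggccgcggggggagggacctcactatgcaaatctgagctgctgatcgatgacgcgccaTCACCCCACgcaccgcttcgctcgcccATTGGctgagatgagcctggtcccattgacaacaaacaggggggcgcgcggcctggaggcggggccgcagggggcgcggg
INSIG1: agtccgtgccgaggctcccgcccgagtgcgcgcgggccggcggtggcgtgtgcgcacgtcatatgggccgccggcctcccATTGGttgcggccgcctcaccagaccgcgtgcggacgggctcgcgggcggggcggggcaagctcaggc
MSMO1: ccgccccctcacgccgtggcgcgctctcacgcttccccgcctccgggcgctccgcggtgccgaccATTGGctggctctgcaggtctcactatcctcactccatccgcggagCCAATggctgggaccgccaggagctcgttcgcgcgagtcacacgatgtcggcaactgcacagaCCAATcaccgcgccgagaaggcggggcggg
TM7SF2: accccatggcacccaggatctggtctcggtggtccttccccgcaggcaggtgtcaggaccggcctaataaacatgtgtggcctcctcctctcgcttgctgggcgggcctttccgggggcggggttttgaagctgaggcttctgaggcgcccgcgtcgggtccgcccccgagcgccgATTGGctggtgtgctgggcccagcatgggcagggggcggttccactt
STARD4: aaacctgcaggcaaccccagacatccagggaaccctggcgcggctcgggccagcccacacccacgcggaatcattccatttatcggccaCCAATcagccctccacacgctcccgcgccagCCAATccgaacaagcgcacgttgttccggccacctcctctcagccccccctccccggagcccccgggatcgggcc
NPC2: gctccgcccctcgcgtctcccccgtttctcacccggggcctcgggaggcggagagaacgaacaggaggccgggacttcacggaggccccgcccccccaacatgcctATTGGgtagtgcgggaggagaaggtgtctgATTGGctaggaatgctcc
The sterol regulatory element of SREBF2 began 133 bases upstream of the start and its CCAAT box 106 bases upstream. The CCAAT boxes of STARD4 began 161 and 130 bases upstream of the start, those of NPC2 at 144 and 114 bases, that of INSIG1 at 170 bases and that of TM7SF2 at 74 bases. MSMO1 held 4 CCAAT boxes in its whole window, of which 3 lie in the stretch shown. A match is a description of the sequence and binding was not measured in these files.

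PBRM1 silencing in BT-549 cells was associated with changes in both directions among the synthesis enzymes and with lower levels of several sterol transport genes. Of 30 members tested, 8 were higher, 7 were lower and 15 did not pass the test, with a median log2 fold of 0.04. Over all 10639 genes tested, 24.6% were higher and 34.8% lower (59.5% in either direction), with a median of -0.05, so the members were called higher in 26.7% and lower in 23.3% of cases. The share of higher members was thus close to the background. The split depends on the scale. With median-ratio scaling 20 members were higher and 7 lower, with trimmed-mean scaling 20 and 6, and with the short noncoding RNAs removed 8 and 13, and the share of higher genes among all genes called moved from 41.4% to 56.7%, 59.9% and 30.8%. ABCA1 did not pass the filter on low values.

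The transport genes NPC1 and STARD4 held the largest folds. NPC1, which moves cholesterol out of lysosomes (chr18:23506184-23586898, minus strand), stood at 50.1, 45.3 and 51.6 TPM in the control libraries and at 19.5, 16.8 and 18.1 TPM in the PBRM1shRNA libraries. Every silenced library lay below every control library, and NPC1 fell by 1.38 ± 0.09 on the log2 scale (adjusted p = 4.39e-55). It was the only member called with a log2 fold beyond 1, which 3.86% of all genes tested reached in the lower and 1.02% in the higher direction. STARD4 was measured at 17.6, 14.0 and 17.2 TPM in control and at 8.28, 7.37 and 8.27 TPM in silenced cells, again without overlap, and fell by 0.94 ± 0.09 (adjusted p = 2.29e-25). MYLIP, a ubiquitin ligase that marks lipoprotein receptors for degradation and is an LXR target, went from 2.26, 1.74 and 2.24 TPM to 1.06, 0.849 and 1.21 TPM and fell by 0.59 ± 0.08 (adjusted p = 9.01e-14). ABCA1, the cholesterol efflux pump of the plasma membrane and another LXR target, was listed at 0.824, 0.697 and 0.819 TPM in control and at 0.334, 0.224 and 0.339 TPM in silenced cells. The groups did not overlap at these low levels, and with the short noncoding RNAs removed, when ABCA1 passed the filter, its log2 fold was -0.99 ± 0.10 (adjusted p = 3.46e-06). NPC2, the partner of NPC1, differed by only 0.08 ± 0.09 (adjusted p = 0.461) with overlapping groups, at 60.8 to 72.4 TPM.

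A neighbouring set, LXR receptors and targets, was tested for 5 of its 8 genes, and 4 were lower and 0 higher. Over all genes tested, 34.8% were lower and 24.6% higher. The largest was ABCA2, a lipid transporter of the endolysosomal membrane, at -1.32 ± 0.08, followed by the receptor gene NR1H2 at -0.50 ± 0.09. Among 14 tested genes of sterol trafficking, esterification and oxysterols, 2 were higher and 5 lower. LIPA, the lysosomal lipase that frees cholesterol from its esters, fell by 0.98 ± 0.09, from 50.1, 45.1 and 50.2 TPM to 25.0, 22.1 and 25.0 TPM, and LRP1, a lipoprotein receptor, by 0.84 ± 0.09. NCEH1, a cholesteryl ester hydrolase of the endoplasmic reticulum, was higher by 1.19 ± 0.09, at 11.3, 9.63 and 11 TPM in control and 26.3, 23.9 and 26.5 TPM in silenced cells. CD68, which encodes a glycoprotein of late endosomes and lysosomes and was listed as a leukocyte marker, moved with NPC1 and LIPA and fell by 1.32 ± 0.09, from 30.8 to 35.2 TPM down to 12.2 to 13.5 TPM. The other 5 leukocyte markers did not pass the filter, and PTPRC was at or below 0.0483 TPM in all 6 libraries. The part of CD68 in these results was not tested.

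Early mevalonate enzymes moved in opposite directions. ACAT2, the thiolase that joins acetyl-CoA units in the opening step, rose from 22.6, 19.8 and 22.5 TPM to 41.3, 35.2 and 40.7 TPM, a log2 fold of 0.82 ± 0.09 (adjusted p = 5.71e-20). The silenced libraries all lay above the controls. HMGCS1, the synthase of the next step, was at 24.5, 21.4 and 24.9 TPM in control and 21.0, 18.7 and 20.2 TPM in silenced cells, lower by a log2 difference of -0.23 ± 0.09 (adjusted p = 0.0167). The HMGCS1 call was lost when control library a, control library c or PBRM1shRNA replicate 2 or 3 was left out (adjusted p up to 0.107). MVK, the mevalonate kinase, rose by 0.30 ± 0.09, whereas PMVK, the kinase that follows it, was at -0.22 ± 0.09 (adjusted p = 0.0208), a call lost without control library a or c or PBRM1shRNA replicate 1 or 2. MVD, IDI1 and FDPS, the decarboxylase, isomerase and farnesyl diphosphate synthase that end this stage, had log2 folds of -0.01 to 0.12 and did not pass the test.

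Of the 11 enzymes from squalene on, 5 were higher and 1 lower, against 24.6% and 34.8% of all genes tested. EBP, a sterol isomerase of the endoplasmic reticulum (chrX:48521158-48528716, plus strand), stood at 33.7, 31.2 and 33.8 TPM in control and at 51.4, 45.7 and 49.0 TPM in silenced cells. DHCR7, the reductase that forms cholesterol in the closing step of the Kandutsch-Russell route, stood at 60.7, 54.8 and 61.9 TPM and at 89.0, 81.3 and 83.8 TPM. Both genes had non-overlapping groups, with log2 folds of 0.55 ± 0.09 for EBP (adjusted p = 1.32e-09) and 0.51 ± 0.09 for DHCR7 (adjusted p = 1.45e-08). SC5D, the desaturase that acts between them, went the opposite way, from 6.55, 5.73 and 6.86 TPM to 4.50, 3.83 and 4.25 TPM, and fell by 0.51 ± 0.09 (adjusted p = 3.22e-08). MSMO1, the methylsterol oxidase, and HSD17B7, the sterol ketoreductase, were each higher by 0.37, with SE of 0.09 and 0.08, and the HSD17B7 call was lost without the filter on low values (adjusted p = 0.0636). SQLE, the squalene epoxidase, passed narrowly at 0.19 ± 0.09 (adjusted p = 0.0491), and its call was lost when any library other than control c was left out. FDFT1, LSS, CYP51A1, TM7SF2 and NSDHL did not pass, with log2 folds of -0.15 to 0.09.

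Among the regulators, SCAP was higher by 0.31 ± 0.09 (adjusted p = 0.000925). INSIG1, which SREBP itself induces, was at 67.5, 59.5 and 67.1 TPM in control and 66.7, 59.9 and 66.1 TPM in silenced cells, and its log2 fold of -0.01 ± 0.09 did not pass the test. With the short noncoding RNAs removed INSIG1 was lower at -0.09 ± 0.03 (adjusted p = 0.0296), and with trimmed-mean scaling it was at 0.13. On the deposited TPM scale SREBF1, SREBF2 and INSIG2 were at 0.10 ± 0.09, 0.13 ± 0.09 and -0.14 ± 0.08 and did not pass either, although their groups did not overlap. Non-overlap was seen in 26.5% of all genes tested in the higher and in 35.4% in the lower direction, and in 10 and 9 of the 30 members. With the replicate number as a block, since same-numbered libraries varied together in this experiment, the members called were 11 higher and 10 lower. IDI1, SREBF1 and SREBF2 were then higher, and LSS, TM7SF2 and INSIG2 lower.

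In fatty acid synthesis, SCD, the desaturase that makes monounsaturated fatty acids, was by far the most abundant member and ranked 7 among the 25375 genes that are not short noncoding RNAs. It stood at 1535, 1349 and 1564 TPM in control and at 1146, 1073 and 1112 TPM in silenced cells. The groups did not overlap, and SCD fell by 0.41 ± 0.08 (adjusted p = 1.92e-06). FASN and ACACA, the fatty acid synthase and the carboxylase that feeds it, were at 0.01 ± 0.09 and 0.05 ± 0.09 and did not pass. Of 25 tested genes of acetyl-CoA supply, elongation and desaturation, 9 were higher and 8 lower, against 24.6% and 34.8% of all genes tested. SCD5, a second desaturase gene, rose by 1.0 ± 0.09, from 3.81, 3.56 and 4.30 TPM to 8.94, 8.48 and 8.84 TPM, and the elongases ELOVL5 and ELOVL6 were at 0.63 ± 0.09 and -0.61 ± 0.09.

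The machinery that processes and degrades SREBP and sterol enzymes gave 9 higher and 2 lower of 17 genes, led by ERLIN1 at 0.63 ± 0.09 and ERLIN2 at 0.59 ± 0.09, a pair of endoplasmic reticulum proteins that bind cholesterol, and by UFD1 at 0.49 ± 0.09. Glycerolipid synthesis gave 4 higher and 3 lower of 12, among them LPIN1, a phosphatidate phosphatase, at -0.68 ± 0.09 and the lipid droplet proteins PLIN3 and PLIN2 at 0.61 ± 0.09 and -0.59 ± 0.09. The isoprenoid branch gave 4 higher and 3 lower of 13, with ICMT, RCE1 and PDSS1, which act in prenylation and ubiquinone synthesis, at 0.66 ± 0.09, 0.28 ± 0.09 and 0.35 ± 0.08. The background for each of these sets is 24.6% higher and 34.8% lower over all genes tested.

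The plot of log2 folds shows all members in the 3 experiments, in the order of the pathway.

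**Figure D1:**
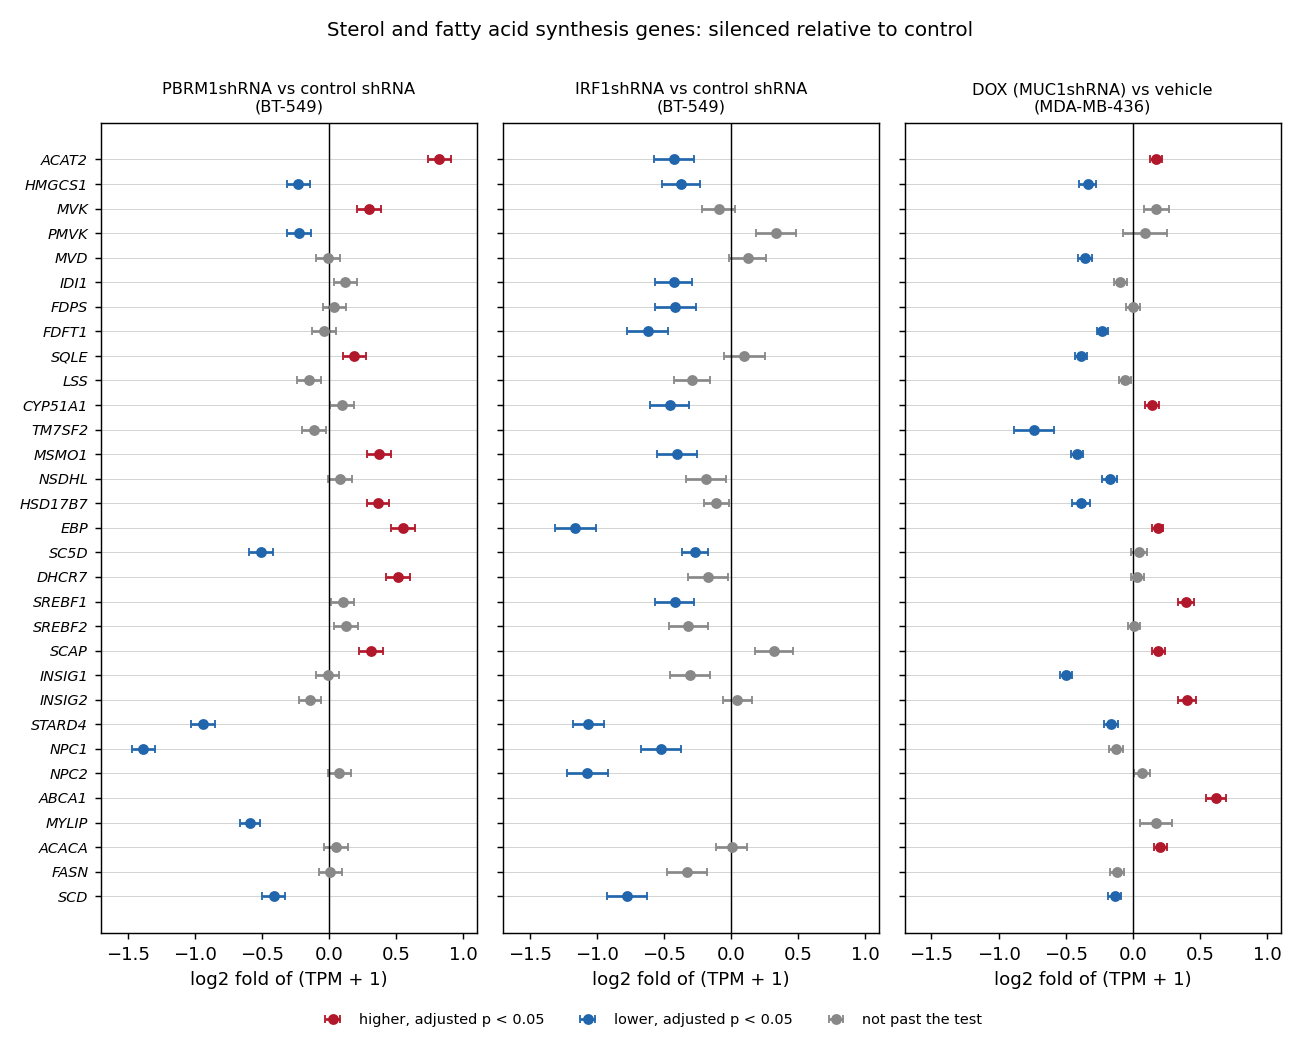
Log2 fold of (TPM + 1), silenced over control, with SE as bars, for each member tested in the PBRM1, IRF1 and MUC1 experiments (3 against 3 libraries each). Red and blue points passed an adjusted p of 0.05, grey points did not, and the gaps are members below the filter. NPC1 lies lowest in the left panel at -1.38, the tested members of the middle panel lie mostly to the left of 0, and the right panel ranges from -0.74 to 0.62.

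IRF1 silencing in BT-549 cells was associated with lower EBP, NPC2, STARD4, SCD and FDFT1, and with 9 further lower calls that depended on single libraries or settings. Of 28 members tested, 14 were lower, 0 were higher and 14 did not pass, with a median log2 fold of -0.32. Over all 9135 genes tested, 18.5% were lower and 5.76% higher (24.3% in either direction), with a median of -0.06, and 50% of the tested members were lower. At an unadjusted p under 0.05, 2 members had a positive log2 fold, PMVK and SCAP. TM7SF2, ABCA1 and MYLIP did not pass the filter.

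The scale of this table needs attention before the single genes. RNAs other than the short noncoding ones took 15.2%, 12.7% and 12.1% of TPM in the control libraries and 11.5%, 13.7% and 11.6% in the IRF1shRNA libraries, and control replicate 1 was the highest control library for 30 of the 31 members. When the short RNAs were removed and the rest rescaled, 19 of 30 members tested were lower and 5 higher, the latter being PMVK, MVD, SQLE, SCAP and INSIG2. The share of higher genes among all genes called went from 23.7% to 54.6%, and to 47.4% to 56.4% with median-ratio, trimmed-mean or quantile scaling, under which 4 to 6 members were higher and 18 to 21 lower. Without control replicate 1, 11 members were lower and 2 higher, and 6, 5 and 5 were lower without control replicate 2, IRF1shRNA replicate 1 or IRF1shRNA replicate 3. EBP, NPC2, STARD4, SCD and FDFT1 were lower in every alternative in which they were tested and with any library left out, and the other 9 lower calls were not. STARD4 was not tested under the filter of a mean of at least 5 TPM.

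EBP was at 22.8, 19.6 and 18.8 TPM in control and at 8.62, 8.76 and 8.30 TPM in IRF1shRNA cells, with no overlap. It fell by 1.16 ± 0.15 on the log2 scale (adjusted p = 6.12e-13). NPC2 (chr14:74476192-74494177, minus strand) was at 35.5, 30.6 and 30.2 TPM in control and at 13.8, 16.5 and 14.0 TPM in silenced cells. It fell by 1.07 ± 0.15 (adjusted p = 6.36e-11). STARD4 (chr5:111496033-111512590, minus strand) went from 4.01, 3.12 and 2.91 TPM to 1.0, 1.14 and 1.06 TPM and fell by 1.06 ± 0.12 (adjusted p = 3.89e-18). These 3 genes were the members with a log2 fold beyond 1, which 1.78% of all genes tested reached in the lower and 0.0547% in the higher direction. The groups of each were separated by a gap wider than the range within the silenced group.

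SCD was lower as well, at 81.3, 67.5 and 67.9 TPM in control and 35.2, 49.1 and 41.5 TPM in silenced cells, a fall by 0.78 ± 0.15 (adjusted p = 3.87e-06). FDFT1, the squalene synthase that commits farnesyl diphosphate to sterols, went from 16.9, 13.9 and 13.0 TPM to 8.16, 10.5 and 8.71 TPM and fell by 0.62 ± 0.15 (adjusted p = 0.000335). NPC1 was at -0.52 ± 0.15 (adjusted p = 0.00339), and its call was lost without IRF1shRNA replicate 1 or 3 (adjusted p up to 0.0937). ACAT2, HMGCS1, IDI1, FDPS, CYP51A1, MSMO1, SC5D and SREBF1 were lower with log2 folds of -0.46 to -0.27 and adjusted p from 0.0106 to 0.0381. Each of these 8 calls was lost when control replicate 2, IRF1shRNA replicate 1 or IRF1shRNA replicate 3 was left out, HMGCS1, MSMO1 and SC5D also without control replicate 1 and SREBF1 without control replicate 3.

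PMVK and SCAP stood apart from the other members. PMVK was at 8.18, 6.53 and 6.88 TPM in control and 9.0, 9.78 and 9.13 TPM in silenced cells, and SCAP at 5.19, 4.33 and 4.34 TPM and at 5.64, 6.43 and 5.98 TPM. Neither pair of groups overlapped, yet the log2 folds of 0.33 ± 0.15 and 0.32 ± 0.14 did not pass the test (adjusted p = 0.0841 and 0.0884). With the short RNAs removed they were 0.49 ± 0.05 for each gene (adjusted p = 6.47e-06 for PMVK and 3.47e-06 for SCAP). Across members, 18 of 28 had non-overlapping groups in the lower and 2 in the higher direction, against 25% and 8.9% of all genes tested. SQLE and MVK overlapped between groups, at log2 folds of 0.10 ± 0.15 and -0.09 ± 0.12.

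Of the related sets, acetyl-CoA supply, elongation and desaturation gave 10 lower and 2 higher of 25 genes. The background for each set here is 18.5% lower and 5.76% higher over all genes tested. FADS2, the desaturase that begins polyunsaturated fatty acid synthesis, fell by 1.1 ± 0.15, from 33.5, 27.9 and 28.5 TPM to 12, 14.7 and 13.6 TPM, and HACD1 and ACSS2 were at -0.60 ± 0.15 and -0.52 ± 0.10. Sterol trafficking gave 6 lower and 1 higher of 14, with HSD3B7, an oxysterol dehydrogenase, at -0.74 ± 0.14, SCARB1, the receptor for high-density lipoprotein, at -0.71 ± 0.14, and NCEH1 as the higher gene at 0.87 ± 0.15. LXR receptors and targets gave 2 lower and 0 higher of 5, among them RXRA, the partner of the LXR receptors, at -0.40 ± 0.10. Glycerolipid synthesis gave 2 in each direction of 11, with the lipid droplet gene PLIN2 at -0.85 ± 0.15, AGPAT3 at 0.48 ± 0.14 and DGAT2 at 0.41 ± 0.12. SREBP processing gave 1 in each direction of 17, SEC24C at 0.45 ± 0.15 and UBE2G2 at -0.39 ± 0.15, and the isoprenoid branch 3 lower and 1 higher of 13, led by DOLK at -0.54 ± 0.11. As after PBRM1 silencing, CD68 passed the test beside these genes, at -0.45 ± 0.15, with PTPRC at or below 0.0203 TPM.

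The effects of the PBRM1 and the IRF1 shRNA, set side by side, differed most at EBP. The log2 fold of EBP was 0.55 after PBRM1 silencing and -1.16 after IRF1 silencing, a difference of 1.71 ± 0.14 (adjusted p = 2.25e-19 from a joint limma fit of all 18 libraries). Of 28 members tested in all experiments, 17 had effects that differed between the pair, against 44.7% of all 8917 genes that differed in either direction. In 15 of the 17 the PBRM1 effect lay above the IRF1 effect. The share of all genes with that direction was not computed, so this split is not a result about the members. ACAT2 differed by 1.25 ± 0.14 and NPC2 by 1.15 ± 0.14, whereas for NPC1 the PBRM1 effect lay below the IRF1 effect by a difference of -0.86 ± 0.14 (adjusted p = 3.09e-07). PMVK was the other member with the PBRM1 effect below. STARD4 fell in both, and the difference of 0.12 ± 0.13 (adjusted p = 0.47) did not pass the test. STARD4 was near 1 TPM in the IRF1shRNA libraries, where log2(TPM + 1) understates changes. Its silenced mean was 0.319 of the control mean in the IRF1 experiment and 0.490 in the PBRM1 experiment. With the short noncoding RNAs removed, its log2 folds were -1.42 ± 0.06 after IRF1 silencing and -1.08 ± 0.05 after PBRM1 silencing. The experiments share no control libraries, and IRF1 itself fell by 1.59 ± 0.09 after PBRM1 silencing, from 22.6 to 25.7 TPM down to 7.08 to 8.11 TPM, whereas PBRM1 was at 0.02 ± 0.15 after IRF1 silencing.

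**Figure D2:**
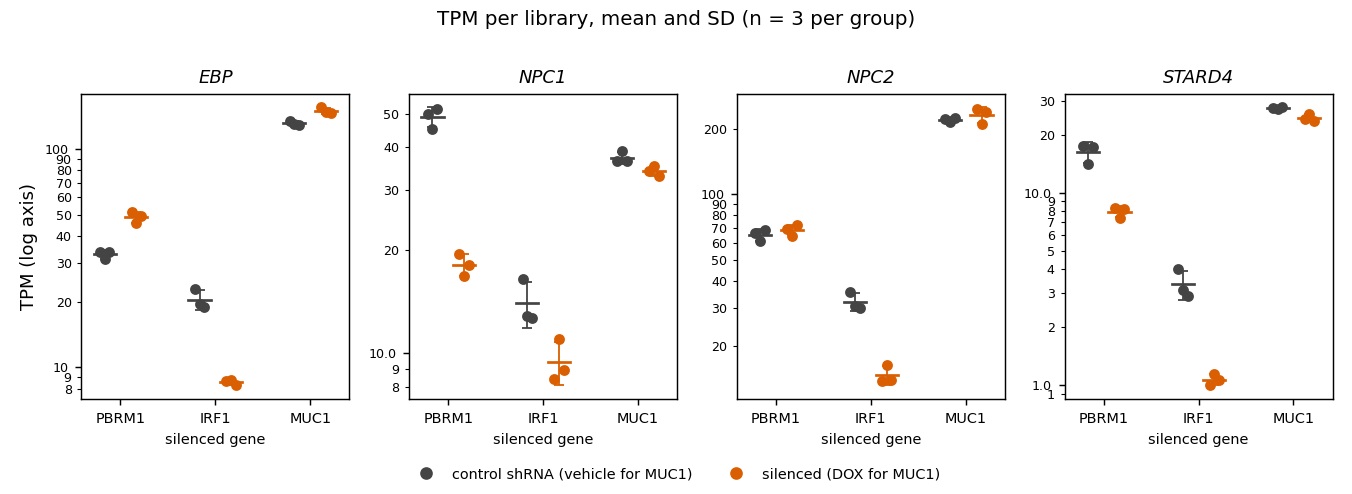
TPM of EBP, NPC1, NPC2 and STARD4 on a log axis for each library of the PBRM1, IRF1 and MUC1 experiments, with control (or vehicle) in grey and silenced (or DOX) in orange, and lines and bars for mean and SD (n = 3). EBP lies above its control after PBRM1 silencing and below it after IRF1 silencing, and levels of different experiments are not on one scale.

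DOX treatment of MDA-MB-436/tet-MUC1shRNA cells was associated with lower levels of several enzymes from squalene on and of INSIG1, and with higher ABCA1, INSIG2 and SREBF1. All 31 members were tested, and 8 were higher, 11 lower and 12 not past the test, with a median log2 fold of 0.00. Over all 13229 genes tested 27% were higher and 23.4% lower (50.4% in either direction), with a median of 0.02, against 25.8% and 35.5% of the members. No member had a log2 fold beyond 1, which 1.35% of genes reached in the lower and 1.34% in the higher direction.

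INSIG1 (chr7:155297776-155310235, plus strand) was at 130, 125 and 132 TPM with vehicle and at 92.5, 94.6 and 86.5 TPM with DOX. The groups did not overlap, and INSIG1 fell by 0.50 ± 0.04 (adjusted p = 2.67e-05). INSIG2, whose product also retains SCAP, moved in the opposite direction, from 23.1, 23.5 and 21.0 TPM to 27.7, 30.8 and 31.8 TPM, a log2 fold of 0.40 ± 0.07 (adjusted p = 0.00109). SREBF1 rose from 17.2, 16.0 and 16.8 TPM to 22.1, 23.3 and 21.4 TPM, also 0.40 with an SE of 0.06 (adjusted p = 0.000483). SREBF2 was at 48.8 to 50.1 TPM with vehicle and 48.2 to 52.0 TPM with DOX, groups that overlapped (log2 fold 0.01 ± 0.04). SCAP was higher by 0.19 ± 0.05 (adjusted p = 0.00773).

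From squalene on, 6 of 11 enzymes were lower and 2 higher, against 23.4% and 27% of all genes tested. MSMO1 was at 151, 149 and 146 TPM with vehicle and 106, 119 and 110 TPM with DOX and fell by 0.42 ± 0.05 (adjusted p = 0.000105). SQLE, the most abundant sterol enzyme here, went from 233, 223 and 220 TPM to 165, 182 and 171 TPM and fell by 0.38 ± 0.04 (adjusted p = 0.000138). HSD17B7 was at 63.6, 58.8 and 52.5 TPM and at 42.9, 44.8 and 45.2 TPM, with a log2 fold of -0.38 ± 0.07 (adjusted p = 0.00134). In all 3 genes every DOX library lay below every vehicle library. TM7SF2, a sterol reductase that overlaps in function with the lamin B receptor, had the largest fall of any member, 0.74 ± 0.15 on the log2 scale (adjusted p = 0.00316). Its vehicle libraries were uneven, at 11.8, 7.53 and 7.54 TPM, against 5.02, 4.73 and 4.83 TPM with DOX, and its call held with any library left out. FDFT1 was lower at -0.23 ± 0.04, and NSDHL, a sterol dehydrogenase, at -0.17 ± 0.06 with overlapping groups, a call lost without vehicle replicate 1 or 2 or DOX replicate 1 or 3.

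EBP and CYP51A1, the lanosterol demethylase, were the higher enzymes of this stage. EBP was at 134, 130 and 128 TPM with vehicle and 155, 147 and 145 TPM with DOX, a log2 fold of 0.18 ± 0.04 (adjusted p = 0.00355). CYP51A1 was at 0.14 ± 0.05 (adjusted p = 0.0358), a call lost without vehicle replicate 1 or 3 or DOX replicate 2 or 3. Of the mevalonate enzymes, HMGCS1 fell by 0.34 ± 0.07, from 35.3, 32.7 and 33.9 TPM to 25.7, 29.4 and 25.1 TPM, and MVD by 0.36 ± 0.06, from 44.5, 39.2 and 42.4 TPM to 32.3, 33.5 and 32.0 TPM. ACAT2 was higher by 0.17 ± 0.04 (adjusted p = 0.0108). MVK, PMVK, IDI1 and FDPS did not pass, with log2 folds of -0.09 to 0.17.

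ABCA1 (chr9:104781002-104928237, minus strand) was at 10.6, 9.90 and 9.27 TPM with vehicle and at 16.7, 15.7 and 14.8 TPM with DOX. The groups did not overlap, and the log2 fold of 0.62 ± 0.07 (adjusted p = 0.000154) was the largest rise of any member. In the set of LXR receptors and targets 3 of 8 genes were higher and 2 lower, against 27% and 23.4% of all genes tested. The log2 folds of the set ran from -0.28 to 0.52, with a median of 0.15. The genes named next are the 3 with the largest folds past the test, and the 2 lower genes are not named. SMPDL3A was higher by 0.52 ± 0.07, LPCAT3, which remodels membrane phospholipids, by 0.49 ± 0.05, and NR1H3, which encodes LXR alpha, by 0.39 ± 0.07. LPCAT3 was at 197, 194 and 177 TPM with vehicle and 270, 269 and 259 TPM with DOX, and NR1H3 at 19.7, 18 and 19.5 TPM and at 22.9, 27.2 and 26.1 TPM. MYLIP, another LXR target, was at 0.17 ± 0.12 with overlapping groups and did not pass.

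STARD4 was lower at -0.16 ± 0.05 (adjusted p = 0.0267), a call lost without vehicle replicate 1 or 3 or DOX replicate 1 or 3. NPC1 and NPC2 did not pass, at -0.12 ± 0.05 (adjusted p = 0.0623) and 0.07 ± 0.06 (adjusted p = 0.337). ACACA was higher by 0.21 ± 0.05, from 22.5, 23.5 and 24.0 TPM to 27.1, 26.7 and 27.4 TPM. SCD was at 189, 175 and 172 TPM with vehicle and 161, 169 and 157 TPM with DOX, a log2 fold of -0.14 ± 0.05 (adjusted p = 0.0362) that did not pass without vehicle replicate 1 or DOX replicate 1 or 3. FASN did not pass at -0.12 ± 0.05. In the members as a whole, groups did not overlap for 12 genes in the lower and 8 in the higher direction, against 27.7% and 31.5% of all genes tested.

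**Figure D3:**
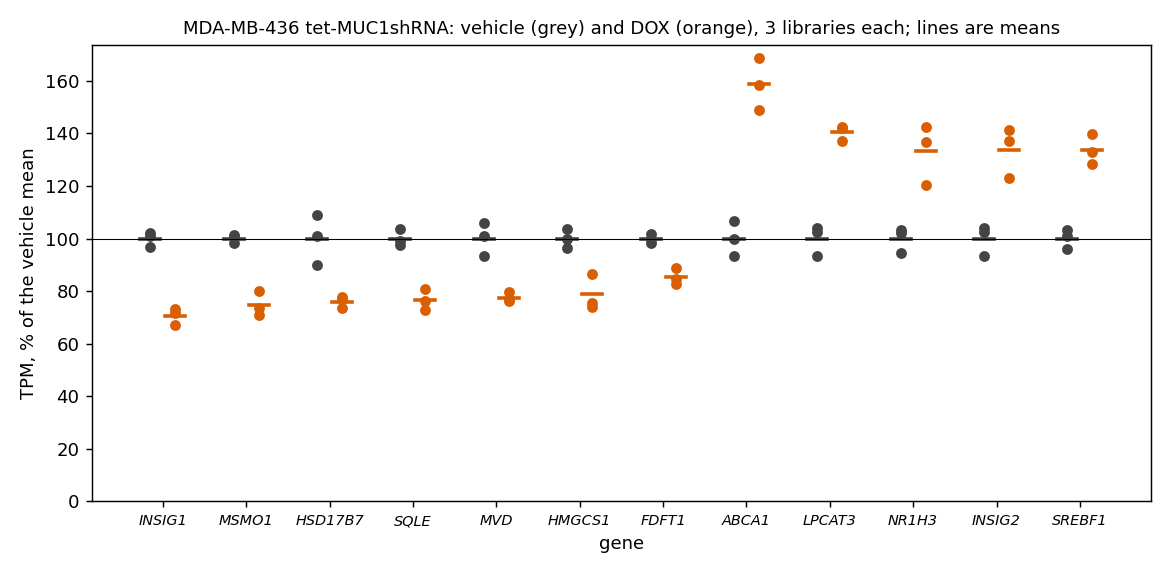
TPM of 12 genes in MDA-MB-436/tet-MUC1shRNA cells as percent of each gene's vehicle mean, with 3 vehicle libraries in grey and 3 DOX libraries in orange and lines for means. The 7 genes on the left, INSIG1 and 6 synthesis enzymes, lie below 100 with DOX, and ABCA1, LPCAT3, NR1H3, INSIG2 and SREBF1 lie above. LPCAT3 and NR1H3 are LXR genes that are not among the 31 members. The genes drawn are a selection. The synthesis enzymes EBP, CYP51A1, ACAT2 and ACACA, called higher, and TM7SF2, NSDHL and SCD, called lower, are not drawn. The 2 genes of the LXR set called lower are not drawn either.

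Genes of the related sets were called in both directions, and the counts of acetyl-CoA and isoprenoid genes lay near the background of 27% higher and 23.4% lower. In sterol trafficking 4 of 18 genes were higher and 8 lower, with OSBPL8, a lipid exchange protein at membrane contacts, at -1.42 ± 0.05, CH25H, which makes an oxysterol, at -0.81 ± 0.18 and LRP1 at -0.75 ± 0.09. SREBP processing gave 9 lower and 2 higher of 17. PAQR3, a Golgi protein that anchors SCAP, fell by 1.32 ± 0.05, from 50.3, 50.1 and 47.2 TPM to 18.1, 20.0 and 19.4 TPM, TMEM33 by 1.30 ± 0.04 and NPLOC4 by 0.98 ± 0.04. Acetyl-CoA supply, elongation and desaturation gave 7 in each direction of 26, with SCD5 at 0.81 ± 0.05, FADS1 at -0.70 ± 0.05 and HACD2 at 0.45 ± 0.05. Glycerolipid synthesis gave 6 lower and 2 higher of 13, with LPIN2 at -0.55 ± 0.06, DGAT2 at -0.51 ± 0.10 and PCYT2 at -0.44 ± 0.07, and the isoprenoid branch 3 in each direction of 13, with RCE1 at -1.03 ± 0.05. Of the leukocyte markers CD68 did not pass, at -0.08 ± 0.04, and CD14 was higher at 0.89 ± 0.14, from 4.11 to 4.78 TPM up to 7.13 to 11 TPM, while PTPRC was at or below 0.201 TPM in all 6 libraries. The part of these in the sterol genes was not tested.

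Effects of DOX in MDA-MB-436 differed from those of PBRM1 silencing in BT-549 for 12 of 28 members, against 47.8% of all genes, and from those of IRF1 silencing for 16, against 39.9%. MSMO1 differed by 0.79 ± 0.15 between the PBRM1 effect of 0.37 and the DOX effect of -0.42 (adjusted p = 3.2e-06), HSD17B7 by 0.75 ± 0.14 and SQLE by 0.57 ± 0.15. INSIG1 differed by 0.49 ± 0.14 (adjusted p = 0.00259). SREBF1 was at -0.42 after IRF1 silencing and at 0.40 with DOX, a difference of -0.82 ± 0.13 (adjusted p = 3.29e-07), and EBP differed by -1.34 ± 0.14. PBRM1 itself fell by 0.60 ± 0.06 with DOX (adjusted p = 8.53e-05), and MUC1 by 0.54 ± 0.09 after PBRM1 silencing (adjusted p = 3.7e-09). Cell line, insulin in the medium, silencing method and gene silenced differ together in these comparisons and cannot be told apart.

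Across the 3 experiments, HMGCS1, SCD and STARD4 were lower in each, 3 of the 28 members tested in all, and 2.58% of the 8917 genes tested in all were lower in each. Each of the 3 rests on a call that was lost with a library left out, that of HMGCS1 in the PBRM1 and IRF1 experiments and those of SCD and STARD4 in the MUC1 experiment. In 7 members, ACAT2, CYP51A1, EBP, HSD17B7, MSMO1, SQLE and SREBF1, a higher call in 1 experiment stood beside a lower call in another, which held for 21.7% of those genes. FASN, LSS and SREBF2 did not pass the test in any experiment. No member was higher in all 3, as were 48 of the 8917 genes.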

How the data were processed

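RNA from triplicate cultures was sequenced from stranded poly(A)-selected libraries, and the submitters' processing notes name STAR, DESeq2 and GRCh38. The authors deposited 3 tables of TPM, and 3 tables of DESeq2 results of which only the mean normalized count was used here, as the authors' signal of depth. The other columns of those tables hold the authors' fold changes and p-values and were not used. TPM keeps no depth, so library depth is unknown and no counting interval was given. The deposited mean normalized counts of members ranged from 49.4 to 289738.

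Values were analysed as log2(TPM + 1), on genes with at least 1 TPM in at least 3 of 6 libraries, with limma 3.58.1 in R 4.3.3 (eBayes, trend on the mean level, Benjamini-Hochberg adjusted two-sided p), 1 fit per table and 1 joint fit for differences between effects. In both BT-549 fits the prior degrees of freedom were infinite, so that the SE follows the level of a gene and not its own spread, and adjusted p can be very small. The fold scale understates changes of genes near 1 TPM. The limma procedure was tested on simulated data. Named genes were all 31 members and, of each related set, at most 3 with the largest fold past the test, except 1 gene that is not reported here. The members and sets were chosen with earlier results of these data known.

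In the PBRM1 table the control columns match no single sample label and are named a, b, c by column order. After subtracting group means, libraries with the same number correlated at 0.455, 0.309 and 0.290 in that experiment, so the numbers were taken to pair them, at -0.209, 0.0854 and 0.228 in the IRF1 experiment and at 0.0530, -0.0364 and 0.00575 in the MUC1 experiment. What a number stands for is not given in the labels. Control library b and PBRM1shRNA replicate 2 each held the highest share of short noncoding RNAs in their group, at 79.2% and 77.3% of TPM. The part of this share in the correlations was not tested. Alternatives were a pseudocount of 0.1, no filter, a mean of at least 5 TPM, removal of short noncoding RNAs, median-ratio, trimmed-mean and quantile scaling, no trend, the replicate block and leaving out each library. Promoter sequences are from RefSeq (GRCh38.p14) and gene positions from GENCODE 29 (GRCh38), and figures and searches were made in Python 3.11.15 with pandas 2.3.3.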

Additional observations from a re-analysis of the deposited data

How the results depend on the processing

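After PBRM1 silencing, 8 members were higher and 7 lower. The higher count became 20 with median-ratio and 20 with trimmed-mean scaling, and the lower count became 13 with the short noncoding RNAs removed. The median log2 fold of members went from 0.04 to -0.04 with the short RNAs removed, 0.15 with median-ratio and 0.18 with trimmed-mean scaling, while the median of all genes moved by -0.11 with the short RNAs removed and by 0.12 with trimmed-mean scaling. With the replicate block, which takes same-numbered libraries of this experiment as pairs, 11 members were higher and 10 lower. After IRF1 silencing, 0 members were higher and 14 lower. The higher count was 5 with the short RNAs removed, 4 with median-ratio, 4 with trimmed-mean and 6 with quantile scaling, 2 without the trend, and 0 to 2 with a library left out. The lower count was 6 without the filter, 5 with the replicate block and 5 to 14 with a library left out. Same-numbered libraries of the IRF1 and MUC1 experiments were not shown to vary together, so the block is no pairing there, and in the MUC1 experiment 8 members were higher and 10 lower with it. The median of members with DOX was 0.00 and became -0.028 with a mean of at least 5 TPM, -0.04 with quantile scaling and -0.05 to -0.0022 with a library left out. Members whose PBRM1 and DOX effects differed numbered 12 of 28, and 22 with the short RNAs removed. Of all genes, 47.8% differed in the joint fit with the short RNAs kept. That share was not computed with the short RNAs removed, so the count of 22 is not a result about the members. The cause of these shifts was not tested.

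Signs turned only for members that had not passed the test on the deposited TPM scale. Some of them passed it under another scale. For INSIG1 in the PBRM1 experiment the adjusted p went down to 0.00237 across the alternatives. In the PBRM1 experiment log2 folds were 0.097 (MVD), 0.076 (FDFT1) and 0.10 (INSIG1) with median-ratio scaling. With trimmed-mean scaling they were 0.12 (MVD), 0.10 (FDFT1), 0.0088 (TM7SF2) and 0.13 (INSIG1). Quantile scaling gave 0.078 (MVD), -0.11 (FDPS), 0.00027 (TM7SF2), 0.023 (INSIG2) and -0.042 (FASN). Removal of the short RNAs gave -0.042 (FDPS), -0.0030 (NPC2), -0.020 (ACACA) and -0.070 (FASN). With a library left out the values ran from -0.050 to 0.041 (MVD), -0.014 to 0.078 (FDPS), -0.10 to 0.0082 (FDFT1), -0.068 to 0.039 (INSIG1), -0.011 to 0.10 (ACACA) and -0.040 to 0.036 (FASN). In the IRF1 experiment MVK was at 0.0062 with quantile scaling, and with a library left out SQLE ran from -0.0014 to 0.22, INSIG2 from -0.031 to 0.15 and ACACA from -0.062 to 0.071. In the MUC1 experiment FDPS was at -0.011 with the short RNAs removed, -0.0071 with median-ratio, -0.0035 with trimmed-mean and -0.031 with quantile scaling. SREBF2 was at -0.0037 with the short RNAs removed and -0.040 with quantile scaling, and DHCR7 at -0.013 with quantile scaling. With a library left out PMVK ran from -0.047 to 0.27, FDPS from -0.051 to 0.038, DHCR7 from -0.0087 to 0.070 and SREBF2 from -0.020 to 0.033.

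Calls that held under all alternatives in which the gene was tested, and with any library left out, numbered 6 higher and 5 lower after PBRM1 silencing, 5 lower after IRF1 silencing, and 7 higher and 8 lower with DOX. Among them, MYLIP in the PBRM1 and STARD4 in the IRF1 experiment were not tested with a mean of at least 5 TPM. With 3 cultures of 1 line per group and unknown library depth, small differences of low genes cannot be resolved.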
